A study of Mus musculus with 8 samples.

Results

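The S100 genes encode small calcium-binding proteins, and 8 of them are described here in the ventricles of mice in which the estrogen-related receptors were targeted in heart muscle. They are S100a1, S100a4, S100a6, S100a9, S100a10, S100a11, S100a13 and S100a16, chosen by symbol, and all 8 were found once each among the 54429 rows of the deposited gene table. All 8 also passed the expression filter of at least 1 RPKM in at least 4 of the 8 libraries. RPKM counts reads scaled by gene length in kilobases and by library size. S100a9 is close to that filter, with 5 libraries above 1 RPKM.

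S100 proteins carry a pair of EF-hand loops, work mostly as dimers, and on binding calcium expose a surface that attaches to target proteins. S100a10 is the exception, since its loops no longer bind calcium and it is held in the open form. In the heart S100a1 is the cardiomyocyte member, known to act on the calcium pump, the ryanodine receptor and titin. Most other members are known from fibroblasts, vessels and leukocytes: S100a4 as a fibroblast and macrophage protein that binds non-muscle myosin, S100a6, S100a10 and S100a11 as partners of annexins, S100a13 as a carrier in the release of Fgf1, and S100a9 as the neutrophil protein that pairs with S100a8.

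The libraries labelled AAV-Cre came from ventricles of C57BL/6 mice with floxed ERRa and ERRg genes (Esrra and Esrrg) that had been given an adeno-associated virus with Cre under the cardiac troponin T promoter, AAV-cTnT-Cre. The libraries labelled AAV-Luc came from mice with the same floxed genes given the matching luciferase virus, so both groups carry the floxed alleles and a virus. There were 4 libraries in each group, injection was at postnatal day 0 to 1, and tissue was taken at day 35. The troponin T promoter is active in cardiomyocytes, and the ventricles were sequenced whole, with their fibroblasts, vessels and leukocytes. Whether the 4 libraries of a group are separate mice is not stated. The p-values therefore rest on the spread between libraries, which may be partly technical.

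From the step size of low RPKM values, the libraries held 48340000 to 61330000 reads, and both reads of a pair may have been counted. The tissue label was met by cardiomyocyte genes: Tnnt2 was at 5027 to 5996 RPKM in AAV-Cre and 3330 to 4203 RPKM in AAV-Luc. Of the targeted genes, Esrrg averaged 217.9 ± 17.7 RPKM in AAV-Cre and 112.7 ± 5.51 RPKM in AAV-Luc, and Esrra averaged 39.05 ± 4.66 RPKM in AAV-Cre and 45.09 ± 3.66 RPKM in AAV-Luc (SD, n = 4 each). Esrrg therefore goes against the label, in a measure summed over the whole gene that does not show the floxed exons, and the group names below are labels only. Most of the transcriptome was higher in AAV-Cre: the median log2 fold change of the 16385 genes tested was 0.41, a factor of 1.33, and 64.4% of them passed as higher, of 73.3% that passed in either direction. Fold changes are AAV-Cre over AAV-Luc on log2(RPKM + 0.5), tested with limma over all 16385 genes with Benjamini-Hochberg adjustment and a threshold of 0.05. Centred values are those after each library is set to the same median, which lowers every fold change by 0.41. Library numbers follow column order and pair no samples.

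As deposited, 7 of the 8 S100 genes were higher in AAV-Cre and none was lower, beside 64.4% higher and 8.87% lower among all genes tested, so the share of members is set against a high background. After centring 4 of the 8 remained higher, S100a4, S100a6, S100a11 and S100a13, and none was lower, beside 21.8% higher and 24.1% lower of all genes (45.9% in either direction). The median log2 fold change of the 8 was 0.72, against 0.41 for all genes tested. The groups did not overlap for 7 members, AAV-Cre above in each, as for 58.4% of all genes tested, while 7.67% had AAV-Cre below without overlap. In bulk tissue, more cells of a type and more RNA per cell cannot be told apart. The members ranged from a fold change under that of the typical gene to one exceeded by few genes.

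**Figure D1:**
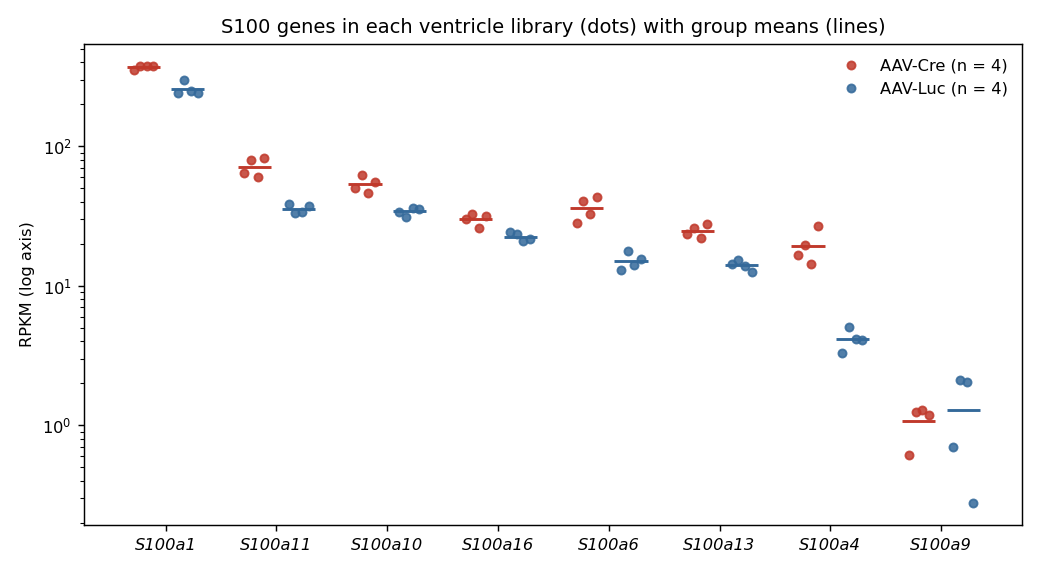
RPKM of the 8 S100 genes on a log axis, with 1 dot for each library (AAV-Cre in red on the left, AAV-Luc in blue on the right, 4 libraries each) and lines at the group means. S100a1 is the most abundant in every library, S100a4 has the widest gap between groups, and only S100a9 has overlapping groups.

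S100a1, the cardiomyocyte member, is on the minus strand of chromosome 3 from 90511034 to 90514392 (GENCODE M21, GRCm38). It had 354.4, 376.0, 376.7 and 374.5 RPKM in AAV-Cre libraries 1 to 4, against 239.4, 297.3, 247.9 and 240.0 RPKM in AAV-Luc libraries 1 to 4. The AAV-Cre libraries were tightly grouped and all lay above the AAV-Luc libraries, of which library 2 stood apart on the high side. Its mean was 370.4 ± 10.7 RPKM in AAV-Cre and 256.2 ± 27.7 RPKM in AAV-Luc (SD, n = 4 each). S100a1 rose by a log2 fold change of 0.54 (SE 0.08, limma adjusted p = 0.000219), or 1.45 times by the means. A log2 fold change at least as large was found in 35.2% of all genes tested. After centring the value was 0.13 and did not pass (limma adjusted p = 0.198). With quantile normalization it was 0.39 and passed (limma adjusted p = 0.00122), so the call depends on how the general shift is removed.

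The level of S100a1 relative to other cardiomyocyte genes depended on the gene it was set against. Per 100 RPKM of Tnnt2, the cardiac troponin T gene, S100a1 was at 6.75, 7.48, 6.28 and 7.17 RPKM in AAV-Cre libraries 1 to 4, against 6.90, 7.07, 7.44 and 6.69 RPKM in AAV-Luc libraries 1 to 4, and these groups overlap. Atp2a2, the calcium pump of the sarcoplasmic reticulum, was lower in AAV-Cre at 1507, 1195, 1579 and 1124 RPKM, against 1732, 1841, 1718 and 1904 RPKM in AAV-Luc (log2 fold change -0.43, limma adjusted p = 0.00738). S100a1 per 100 RPKM of Atp2a2 was therefore 28.0 ± 5.08 RPKM in AAV-Cre and 14.3 ± 1.47 RPKM in AAV-Luc (SD, n = 4 each), with no overlap. A log2 fold change at or above that of Atp2a2 was found in 93.7% of all genes tested, so a higher ratio to it is common. Of the 4 genes listed as bound by S100a1, Ttn, the titin gene, was higher (0.39, limma adjusted p = 0.00863), Atp2a2 and Pln, its inhibitor phospholamban, were lower (-0.26 for Pln, limma adjusted p = 0.0346), and Ryr2, the calcium release channel, did not pass (-0.09, limma adjusted p = 0.448). After centring none of these 4 was higher and 3 were lower, beside 21.8% higher and 24.1% lower of all genes tested. Per 100 RPKM of the 10 cardiomyocyte markers together, S100a1 was 1.46 to 1.72 RPKM in AAV-Cre and 0.868 to 0.993 RPKM in AAV-Luc, with no overlap. The ratios to Tnnt2, Atp2a2 and the marker sum were chosen after the values were seen and carry no test. How many of all genes separate in these ratios was not counted.

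S100a13 lies head to head with S100a1, on the plus strand from 90514435 to 90524581 of chromosome 3. In the RefSeq promoter table (GRCm38.p6) the first base of S100a1 is 90514330 and that of S100a13 is 90514435, and the 104 bases between these starts are shown because they lie between both starts. Other annotated transcripts of both genes reach into this stretch, and the RefSeq gene spans overlap by 98 bases, from 90514233 to 90514330. Without known use of strand, reads from there cannot be assigned to 1 of the genes. The plus strand of chr3:90514331-90514434 reads:
S100a1 to S100a13: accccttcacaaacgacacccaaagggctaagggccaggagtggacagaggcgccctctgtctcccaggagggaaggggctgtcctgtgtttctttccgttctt

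S100a13, which carries Fgf1 and interleukin 1 alpha out of cells without a signal peptide, had 23.29, 25.81, 21.99 and 27.65 RPKM in AAV-Cre libraries 1 to 4, against 14.37, 15.24, 13.76 and 12.54 RPKM in AAV-Luc libraries 1 to 4. All AAV-Cre values were above all AAV-Luc values. S100a13 rose by a log2 fold change of 0.80 (SE 0.09, limma adjusted p = 4.58e-05), and it also passed after centring (0.39, limma adjusted p = 0.00339). A fold change at least as large was found in 15.9% of all genes tested. Fgf1, its cargo, averaged 41.67 RPKM in AAV-Cre and 37.34 RPKM in AAV-Luc and did not pass (log2 fold change 0.15, limma adjusted p = 0.116), but was lower after centring (-0.26, limma adjusted p = 0.0414). Il1a was under 0.5 RPKM in every library. S100a1 was 15.1 ± 1.51 times the level of S100a13 in AAV-Cre and 18.3 ± 1.28 times in AAV-Luc (SD, n = 4 each), with overlap, and this difference did not pass (two-sided exact permutation p = 0.0571).

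S100a10 and S100a11, both annexin partners, sit together on the plus strand, from 93555080 to 93564643 and from 93520488 to 93526287 of chromosome 3. S100a11 had 63.97, 79.59, 60.44 and 81.70 RPKM in AAV-Cre libraries 1 to 4, against 38.27, 33.48, 33.67 and 37.31 RPKM in AAV-Luc libraries 1 to 4, so that its mean was 2.0 times as high in AAV-Cre with no overlap. It rose by a log2 fold change of 0.98 (SE 0.11, limma adjusted p = 3.82e-05), also after centring (0.57, limma adjusted p = 0.0011). S100a10 had 50.12, 62.61, 45.86 and 55.16 RPKM in AAV-Cre libraries 1 to 4, against 33.69, 31.17, 36.14 and 35.26 RPKM in AAV-Luc libraries 1 to 4. Again no values overlapped, but the rise of S100a10 was smaller, a log2 fold change of 0.63 (SE 0.10, limma adjusted p = 0.000287), and after centring it did not pass (0.23, limma adjusted p = 0.0961). In AAV-Luc these neighbours had nearly the same level, with S100a11 above S100a10 in 3 of 4 libraries, and in AAV-Cre S100a11 was above S100a10 in 4 of 4 libraries, though the ranges still touched.

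The promoter of S100a11 is shown because it is the one with a repeated motif among the members, and that of S100a4 because this gene had the largest fold change. RefSeq promoters (250 bases before to 50 after the start) were found for 7 of the 8 genes. They were searched on both strands for TNAAGGTCA, the half-site bound by estrogen-related receptors, and for GGAATG, bound by TEAD factors. TGANTCA, which takes in the AP-1 site but leaves its middle base open, was also searched. So was TATAAA, the core of the TATA box, which was added after the sequences were seen. The half-site and GGAATG were found in 0 of the 7 genes, while 1.28% and 14.7% of 32851 promoters in the table hold them. TGANTCA was found in 2 of 7, S100a11, which holds 2 matches, and S100a16, and is in 7.81% of the table, and TATAAA in 2 of 7, S100a4 and S100a9, and is in 13.6%. Members are counted by gene and the percentages by promoter. S100a16 holds its match in the promoter at chr3:90540896-90541195 and not in its promoter at chr3:90537004-90537303. TATAAA begins 31 bases before the start in S100a4, but at the annotated start itself in S100a9. No matches overlapped each other. A match or its absence in these letters says nothing on binding. The 250 bases before the S100a11 start, chr3:93520246-93520495, with both TGANTCA matches in capitals, and before the S100a4 start, chr3:90603520-90603769, with TATAAA in capitals, read on the plus strand:
S100a11: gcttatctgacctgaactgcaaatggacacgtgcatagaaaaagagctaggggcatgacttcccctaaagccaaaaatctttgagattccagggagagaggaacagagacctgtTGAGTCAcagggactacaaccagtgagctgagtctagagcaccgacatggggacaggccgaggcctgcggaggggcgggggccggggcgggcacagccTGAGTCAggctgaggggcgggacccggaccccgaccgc
S100a4: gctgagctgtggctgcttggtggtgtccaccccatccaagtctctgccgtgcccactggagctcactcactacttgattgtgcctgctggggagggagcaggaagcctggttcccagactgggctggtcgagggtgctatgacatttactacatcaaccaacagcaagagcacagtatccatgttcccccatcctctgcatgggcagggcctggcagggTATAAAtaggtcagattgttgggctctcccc

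Of the annexins listed as bound by S100 proteins, Anxa1, Anxa2, Anxa5 and Anxa11 rose as deposited and Anxa6 did not. Anxa2, the partner of S100a10 at the plasma membrane, had 69.02, 77.65, 61.98 and 83.27 RPKM in AAV-Cre, against 38.46, 38.03, 33.38 and 39.85 RPKM in AAV-Luc (log2 fold change 0.95, limma adjusted p = 2.99e-05). S100a10 per 100 RPKM of Anxa2 was 73.4 ± 5.90 RPKM in AAV-Cre and 91.6 ± 11.5 RPKM in AAV-Luc, without overlap, whereas S100a11 per 100 RPKM of Anxa2 was 97.7 ± 4.02 RPKM in AAV-Cre and 95.5 ± 5.89 RPKM in AAV-Luc, with overlap (SD, n = 4 each). Relative to Anxa2, then, S100a10 was lower in AAV-Cre and the groups could not be separated for S100a11. The gap for S100a10 was narrow, from 80.6 RPKM at most in AAV-Cre to 82 RPKM at least in AAV-Luc. A log2 fold change at or above that of Anxa2 was found in only 10.2% of all genes tested, so a lower ratio to it is common. The ratios to Anxa2 were chosen after the values were seen and carry no test. How many of all genes separate in them was not counted. Anxa1, another annexin bound by S100a11, rose more than S100a11, by a log2 fold change of 1.25 (limma adjusted p = 3.18e-05). Of the 12 annexins and scaffolds listed as bound by S100 proteins, 11 were tested, with a median log2 fold change of 0.82, against 0.41 for all genes tested. As deposited 10 rose and none fell, beside 64.4% higher and 8.87% lower of all genes tested. After centring 7 rose and 1 fell, beside 21.8% higher and 24.1% lower of all genes. Ahnak, the giant scaffold that docks on S100a10 and Anxa2, averaged 1117 RPKM in AAV-Cre and 598.4 RPKM in AAV-Luc. Anxa6 was the tested gene that did not pass as deposited (-0.17, limma adjusted p = 0.0609) and was lower after centring (-0.57, limma adjusted p = 6.9e-05).

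**Figure D2:**
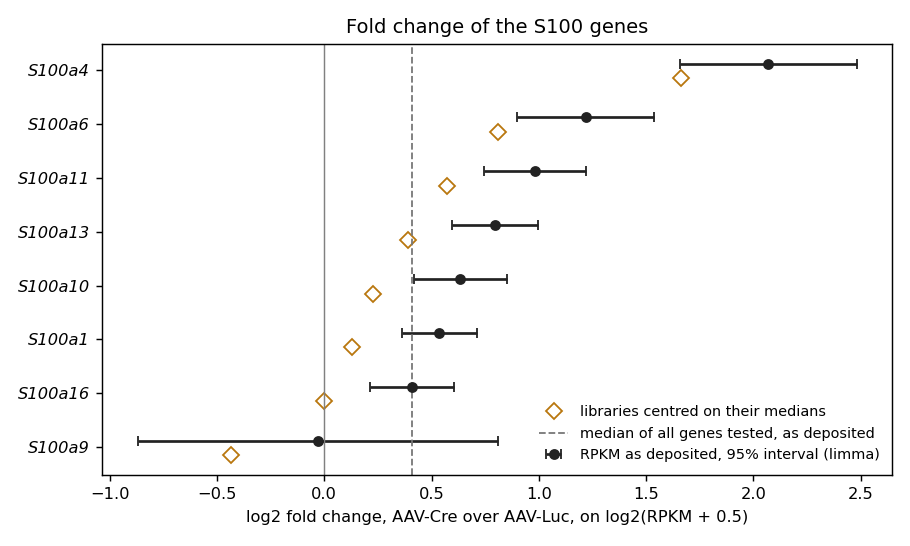
Log2 fold change of each S100 gene, AAV-Cre over AAV-Luc (4 libraries each), with its 95% interval from limma on RPKM as deposited (black) and the value after centring each library on its median (open diamonds). The dashed line is the median of all genes tested, 0.41, and the interval of S100a1, S100a16 and S100a9 reaches over it.

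S100a6, known as calcyclin for its link to proliferating cells, is on the plus strand from 90612882 to 90624181 of chromosome 3. It had 28.26, 40.65, 32.48 and 43.16 RPKM in AAV-Cre libraries 1 to 4, against 13.03, 17.81, 14.09 and 15.56 RPKM in AAV-Luc libraries 1 to 4. Even the lowest AAV-Cre library was well above the highest AAV-Luc library, and the ratio of means was 2.39. The rise was 1.22 on the log2 scale (SE 0.14, limma adjusted p = 6.12e-05) and 0.81 after centring (limma adjusted p = 0.000937), and 5.12% of all genes tested had one at least as large. Its binding protein gene Cacybp rose as well, averaging 35.05 RPKM in AAV-Cre and 17.74 RPKM in AAV-Luc (log2 fold change 0.96, limma adjusted p = 9.77e-06). So did Anxa11, an annexin that binds S100a6, at 45.98 RPKM in AAV-Cre and 24.25 RPKM in AAV-Luc (0.89, limma adjusted p = 0.000305).

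S100a4 is on the plus strand from 90603771 to 90606045 of chromosome 3 and had the largest fold change of the 8 genes. It had 16.64, 19.54, 14.37 and 26.82 RPKM in AAV-Cre libraries 1 to 4, against 3.287, 5.087, 4.157 and 4.057 RPKM in AAV-Luc libraries 1 to 4. The AAV-Cre libraries were spread widely, with library 4 highest, and still none came near the AAV-Luc range. S100a4 rose by a log2 fold change of 2.07 (SE 0.18, limma adjusted p = 1.27e-05), a ratio of means of 4.66, and by 1.66 after centring (limma adjusted p = 5.64e-05). Only 1.16% of all genes tested had a fold change at least as large. Gm42674, a gene model on the same strand, covers 51.7% of the exon bases of S100a4, and S100a4 was 88.6 to 90.8 RPKM per 100 RPKM of Gm42674 in AAV-Cre and 85.9 to 90.0 in AAV-Luc, so these rows may count the same reads. Myh9, the non-muscle myosin heavy chain that S100a4 binds, rose far less, at 29.02 RPKM in AAV-Cre and 23.65 RPKM in AAV-Luc (log2 fold change 0.30, limma adjusted p = 0.0458), and did not pass after centring (-0.11, limma adjusted p = 0.402).

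S100a16, a widely expressed member, is on the plus strand from 90537254 to 90543151 of chromosome 3. It had 30.11, 32.84, 25.79 and 31.63 RPKM in AAV-Cre libraries 1 to 4, against 24.14, 23.43, 20.80 and 21.58 RPKM in AAV-Luc libraries 1 to 4. The lowest AAV-Cre value was just above the highest AAV-Luc value. S100a16 rose by a log2 fold change of 0.41 as deposited (SE 0.09, limma adjusted p = 0.00202), which is the median of all genes tested, and 49.9% of them had a fold change at least as large. After centring its fold change was 0.000436 (limma adjusted p = 0.997).

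S100a9, the neutrophil member, is on the minus strand from 90692632 to 90695721 of chromosome 3 and was the one of the 8 that did not pass. It had 0.609, 1.235, 1.277 and 1.188 RPKM in AAV-Cre libraries 1 to 4, against 0.703, 2.109, 2.055 and 0.277 RPKM in AAV-Luc libraries 1 to 4. The AAV-Luc range enclosed the AAV-Cre range. At the annotated transcript lengths these values correspond to about 18 to 37 reads in AAV-Cre and 8 to 63 reads in AAV-Luc, so counting error alone is large. The log2 fold change was -0.03, with a 95% interval of -0.87 to 0.81 (limma adjusted p = 0.951), and with a pseudocount of 0.1 it was 0.055, so its direction is not settled. Its partner S100a8 did not pass the filter, at 0.428 to 0.950 RPKM in AAV-Cre and 0.292 to 1.327 RPKM in AAV-Luc. S100a9 per 100 RPKM of S100a8 was 127 to 155 RPKM in AAV-Cre and 94.9 to 206 RPKM in AAV-Luc, and both genes were lowest in AAV-Cre library 1 within AAV-Cre and in AAV-Luc library 4 within AAV-Luc. Of 12 neutrophil markers, 0 passed the filter and Elane was at 0 in every library, and their summed level was 2.24 to 3.34 RPKM in AAV-Cre and 1.93 to 4.79 RPKM in AAV-Luc.

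S100a1 was then set against each other member by its ratio within a library, which does not depend on how a library is scaled. The ratio of S100a1 to S100a4 was 21.3, 19.2, 26.2 and 14 in AAV-Cre libraries 1 to 4, against 72.8, 58.4, 59.6 and 59.2 in AAV-Luc libraries 1 to 4. S100a1 exceeded S100a4 by far less in AAV-Cre than in AAV-Luc, with a log2 difference of -1.66 (two-sided exact permutation p = 0.0286). No smaller p is possible with 4 libraries in each group. The ratio to S100a6 averaged 10.5 ± 1.85 in AAV-Cre and 17.0 ± 1.27 in AAV-Luc (log2 difference -0.71, exact permutation p = 0.0286), and that to S100a11 averaged 5.27 ± 0.77 in AAV-Cre and 7.23 ± 1.2 in AAV-Luc (log2 difference -0.45, exact permutation p = 0.0286; SD, n = 4 each). These 3 ratios were lower in AAV-Cre with no overlap. Over the 7 ratios tested, the adjusted p of each of the 3 was 0.0667, so none passed a threshold of 0.05 after adjustment. The ratios to S100a13 (log2 difference -0.28, exact permutation p = 0.0571), S100a10 (-0.10, p = 0.543), S100a16 (0.12, p = 0.4) and S100a9 (0.43, p = 0.629) did not pass before adjustment either.

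**Figure D3:**
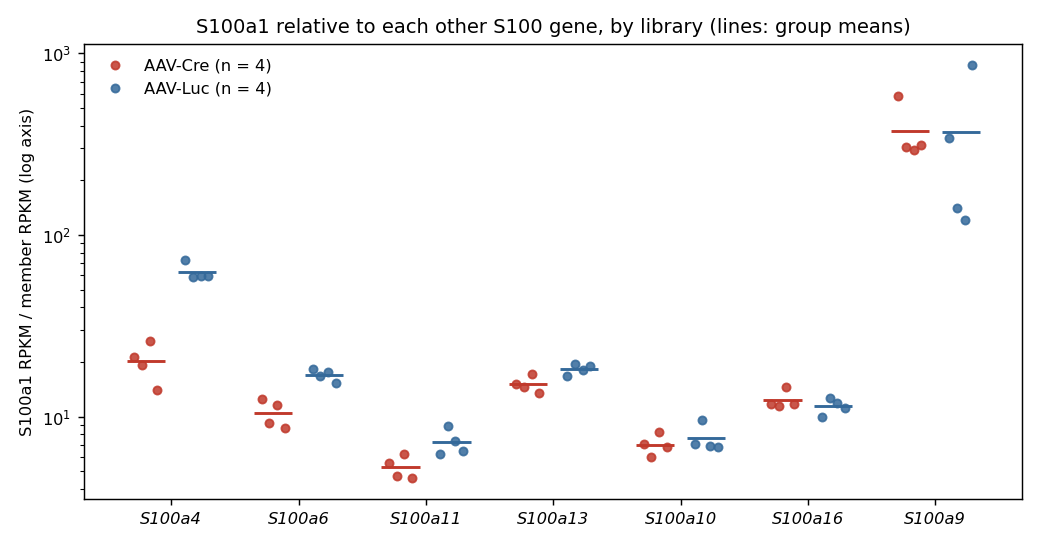
RPKM of S100a1 divided by that of each other S100 gene, on a log axis, with 1 dot for each library (AAV-Cre in red on the left, AAV-Luc in blue on the right, 4 each) and lines at the group means. The ratio to S100a4 is 14 to 26.2 in AAV-Cre and 58.4 to 72.8 in AAV-Luc, and the ratios to S100a10 and S100a16 overlap.

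S100a1 remained the most abundant member per length of gene in all 8 libraries. Its share of the summed RPKM of the 8 genes was 58.4 to 65.1% in AAV-Cre and 65.3 to 69.8% in AAV-Luc. In AAV-Cre the order of mean RPKM was S100a1, S100a11, S100a10, S100a6, S100a16, S100a13, S100a4 and S100a9, and in AAV-Luc S100a16 stood before S100a6. S100a6 was above S100a16 in 3 of 4 AAV-Cre libraries, and in AAV-Luc S100a16 was above S100a6 in 4 of 4, with ranges that did not touch. Within AAV-Cre the ranges of S100a11 and S100a10, of S100a6 and S100a16, of S100a16 and S100a13, and of S100a13 and S100a4 overlapped. Within a library, however, S100a11 was above S100a10, S100a16 above S100a13 and S100a13 above S100a4 in 4 of 4 AAV-Cre libraries. Within AAV-Luc the ranges of S100a11 and S100a10 and of S100a6 and S100a13 overlapped, and the first of each pair was higher in 3 of 4 libraries.

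Counts of ventricular cell markers are set beside all genes tested. Of these, 64.4% were higher and 8.87% lower as deposited, and 21.8% were higher and 24.1% lower after centring. All 12 macrophage markers rose, 12 also after centring, with a summed level of 380.5 to 508.8 RPKM in AAV-Cre and 180.7 to 194.2 RPKM in AAV-Luc. All 12 fibroblast markers rose, 11 after centring, and summed to 1863 to 3220 RPKM in AAV-Cre and 760.6 to 918.5 RPKM in AAV-Luc, with Col1a2, a collagen gene, at 676.8 RPKM in AAV-Cre and 246.3 RPKM in AAV-Luc. Of 12 endothelial markers 4 rose and none fell as deposited, and 1 rose and 7 fell after centring. Of 10 pericyte and smooth muscle markers 5 rose and 3 fell as deposited, and 4 rose and 5 fell after centring. The actin gene Acta2 was at 1359 RPKM in AAV-Cre and 145.5 RPKM in AAV-Luc. Rgs5, next in this list by mean RPKM, went the other way, at 122 RPKM in AAV-Cre and 146.1 RPKM in AAV-Luc (log2 fold change -0.26, limma adjusted p = 0.0379). Of 10 cardiomyocyte markers 4 rose and 4 fell, and none rose and 6 fell after centring.

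The members differed in how they stood against these marker sums, in ratios that carry no test. S100a4 per 100 RPKM of the fibroblast markers was 0.835, 0.774, 0.771 and 0.833 RPKM in AAV-Cre libraries 1 to 4, against 0.358, 0.628, 0.547 and 0.446 RPKM in AAV-Luc libraries 1 to 4. S100a4 per 100 RPKM of the macrophage markers was 4.23 ± 0.71 RPKM in AAV-Cre and 2.19 ± 0.41 RPKM in AAV-Luc (SD, n = 4 each). So S100a4 was higher in AAV-Cre relative to either sum, with no overlap. S100a6 was 1.53 ± 0.18 RPKM per 100 RPKM of the fibroblast markers in AAV-Cre and 1.80 ± 0.32 RPKM in AAV-Luc, and 7.98 ± 1.04 RPKM per 100 RPKM of the macrophage markers in AAV-Cre and 7.98 ± 1.1 RPKM in AAV-Luc, and both overlap. S100a1, S100a10, S100a11, S100a13 and S100a16 rose less than these markers, with lower values per 100 RPKM of either sum in AAV-Cre and no overlap. The cardiomyocyte marker sum was 21810 to 25770 RPKM in AAV-Cre and 26110 to 29940 RPKM in AAV-Luc, while the median gene tested rose by a factor of 1.33. Against this sum the order was turned: all members but S100a9 were higher in AAV-Cre with no overlap. S100a16, whose fold change was the median of all genes tested, was among them. How many of all genes separate in this way was not counted for any of these sums. S100a11 was at 0.309 ± 0.0697 RPKM per 100 RPKM of the cardiomyocyte markers in AAV-Cre and 0.130 ± 0.0142 RPKM in AAV-Luc (SD, n = 4 each). The part of these cells in the levels of the S100 genes was not tested.

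The spread among AAV-Cre libraries was shared by most members. Libraries 2 and 4 were the highest pair for 6 of the 8 genes, all but S100a1 and S100a9, and library 3 was the lowest for 5. The fibroblast marker sum fell in the order of libraries 4, 2, 1 and 3, and so did the macrophage sum, S100a4, S100a11 and S100a13. The library medians used for centring fell in this order too, by small steps. On the log2 scale they were 3.054, 3.05, 3.021 and 3.013 in AAV-Cre libraries 4, 2, 1 and 3. The order is therefore not particular to these genes and marker sums. How many of all genes share it was not counted, and a link to cell content was not tested. In AAV-Cre S100a1 varied least, with a coefficient of variation of 2.89%, against 28.0% for S100a4. In AAV-Luc that of S100a1 was 10.8%, above the 6.39 to 8.13% of S100a10, S100a11, S100a13 and S100a16. AAV-Cre library 3 also had the most of the atrial light chain Myl7, 112.9 RPKM against 41.74 to 52.78 RPKM in the other AAV-Cre libraries, and AAV-Luc library 2 had 26.20 RPKM against 2.951 to 9.879 RPKM in the other AAV-Luc libraries. Without these 2 libraries S100a9 fell below the filter and was not tested. The other 7 of the 8 members passed as higher, beside 61.4% of all genes tested there.

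**Figure D4:**
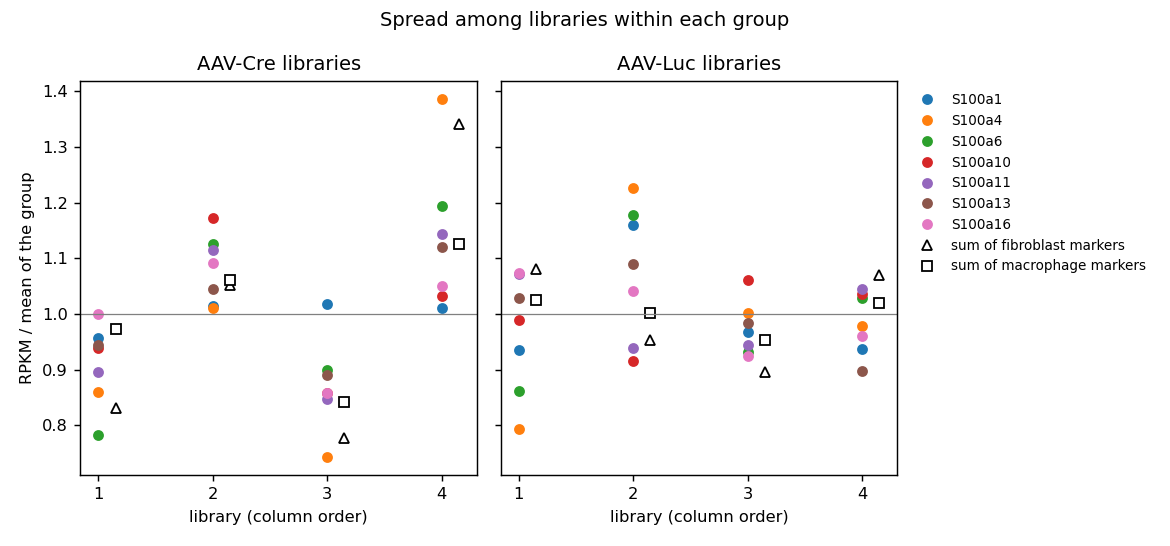
RPKM of 7 S100 genes in each library, divided by the mean of the group, for the 4 AAV-Cre libraries (left) and the 4 AAV-Luc libraries (right), with the summed fibroblast markers (triangles) and macrophage markers (squares) treated alike. In AAV-Cre the genes other than S100a1 are above 1 in libraries 2 and 4 and about 1 or lower in libraries 1 and 3, as the marker sums are. S100a9 is left out for its low counts.

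The other S100 genes listed had low levels in these ventricles. Of 9 further family genes listed, 8 had a row, S100z was at 0 in every library, and only S100a7a passed the filter, at 3.312 RPKM in AAV-Cre and 2.112 RPKM in AAV-Luc (log2 fold change 0.61, limma adjusted p = 0.0297), with groups that overlap and no call after centring (0.20, limma adjusted p = 0.484). S100b, the glial and Schwann cell member, was 0.652 to 1.061 RPKM in AAV-Cre and 0.154 to 0.446 RPKM in AAV-Luc, too low to test. Among receptors for secreted S100 proteins, Ager averaged 0.205 RPKM in AAV-Cre and 0.171 RPKM in AAV-Luc, also too low to test. Tlr4, the receptor for S100a8 and S100a9, rose and averaged 15.48 RPKM in AAV-Cre and 6.172 RPKM in AAV-Luc (log2 fold change 1.27, limma adjusted p = 2.37e-05). Bsg, a further S100a9 receptor, was higher as deposited (0.24, limma adjusted p = 0.0161) and did not pass after centring (-0.17, limma adjusted p = 0.0758).

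Genes next to the members on the chromosome were compared by their values alone. S100a4 and S100a6 are next to S100a3 and S100a5, which were under 0.1 RPKM in all 8 libraries. Of the genes beyond S100a1, Chtop rose by 0.38 (limma adjusted p = 0.000142) and Snapin by 0.37 (limma adjusted p = 0.00019) on the log2 scale, and neither passed after centring. Ilf2 rose by 0.58 (limma adjusted p = 3.61e-05) and also passed after centring (0.17, limma adjusted p = 0.0411). Between S100a13 and S100a16 lies S100a14, an epithelial member that stayed under 0.15 RPKM in all 8 libraries.

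**Figure D5:**
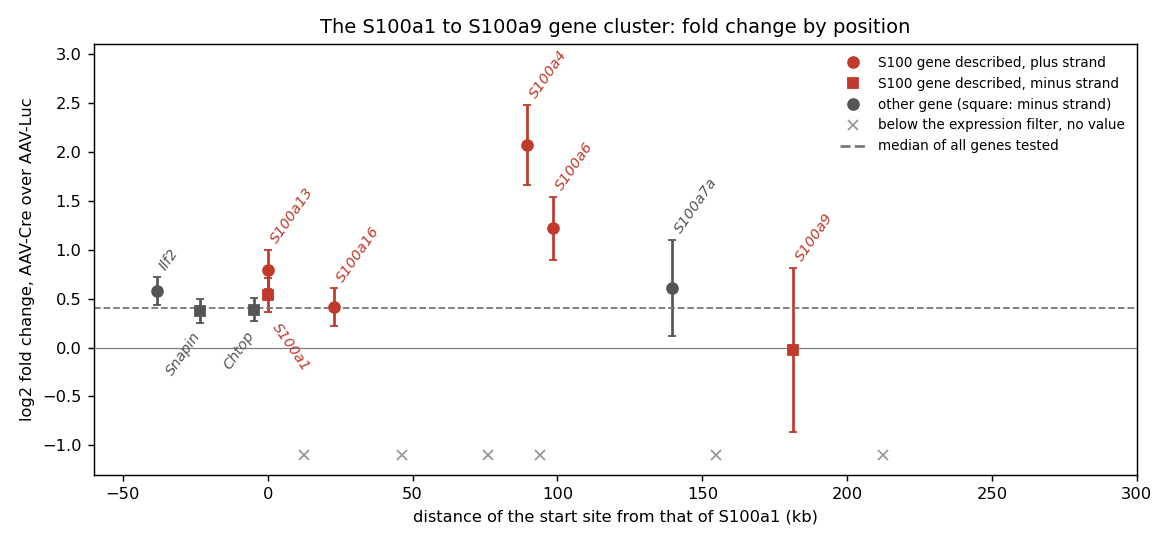
Log2 fold change, AAV-Cre over AAV-Luc, with 95% intervals from limma, of the genes around S100a1 by the distance of their start sites from that of S100a1 in kb; crosses at the bottom mark genes below the expression filter, which have no value, and the overlapping model Gm42674 is left out. S100a4 at 2.07 and S100a6 at 1.22 have larger fold changes than the other tested genes shown. S100a16, Snapin and Chtop lie at or next to the dashed median of 0.41.

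Likeness of pattern was measured as the root mean square difference between genes, over the 8 libraries, of log2(RPKM + 0.5) minus each gene's AAV-Luc mean, among genes of at least 5 RPKM on average. The closest to S100a1 were Uros (0.04), Yeats4 (0.0407) and Timm17b (0.0476), while its closest member was S100a16 (0.162). For S100a11 they were Ctsc (0.0521), Anxa2 (0.0694) and Rcn3 (0.0717), so that Anxa2 was second of 8056 genes compared. Anxa1 was not among the 3 closest to S100a11, and Anxa2 was not among the 3 closest to S100a10. S100a13 was closest to Slc36a4 (0.0353), S100a10 to Dynlt3 (0.044), S100a16 to Pdia3 (0.0483), S100a6 to Txndc5 (0.113) and S100a4 to Tmem51 (0.167). S100a9 had no close match, with Zfp971 nearest at 0.405. With 2 groups of 4 these distances mostly follow the size of the fold change.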

How the data were processed

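Poly(A) RNA of mouse ventricles was sequenced in paired-end mode, per the labels' protocols, which name both a TruSeq and a NEBNext kit. The authors deposited RPKM values, 1 column for each library plus group averages that equal the column means to within 3.64e-12 RPKM. The mm10 build and the tools STAR, edgeR, FastQC 0.11 and Partek 6.6 are named, per the submitters' processing notes, without roles. The annotation, gene lengths and strand setting: not given in the sources used here. Columns name a group and no sample, so each was used as an unpaired replicate.

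limma 3.58.1 (R 4.3.3; lmFit, eBayes with a trend) was fitted to log2(RPKM + 0.5) of the 16385 genes reaching 1 RPKM in 4 or more libraries, with p adjusted over them and a threshold of 0.05; the method was tested on simulated data. In that simulation, with 50 genes changed at each size, 48% of log2 changes of 0.5, 72% of 1.0 and 100% of 2.0 were recovered. Far fewer genes changed there than passed in these data, so these rates may not carry over. The pseudocount understates changes of low genes. Single ratios used a two-sided exact permutation test over 70 arrangements. Depth came from genes with a single transcript, where 98.6 to 98.9% of low values were whole multiples, within 0.1, of 1 step. RPKM is relative to the library total, so a fall of abundant transcripts raises all others. Positions are from GENCODE M21 and promoter sequences from RefSeq (GRCm38.p6, the assembly of mm10). Python 3.11.15, numpy 2.4.6, pandas 2.3.3 and matplotlib 3.10.9 were used.

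The rule for names took all 8 members, tested genes of the family and partner lists, up to 3 genes of each marker list by mean RPKM, cluster neighbours and the 3 genes of closest pattern, gene models left out. Genes below the filter, Gm42674 and the ratios to partner genes or marker sums were chosen after their values were seen. The members and lists were chosen with earlier results of these data known. Alternatives were pseudocounts of 0.1 and 1, no filter, a mean of at least 5 RPKM, median centring, quantile normalization, leaving out mitochondrial and haemoglobin genes, a robust prior, library weights, and leaving out libraries.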

Additional observations from a re-analysis of the deposited data

Results flagged for a closer look

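In 16 groups of 4 values examined (8 genes in each label), 3 had a library far from the other 3, where chance flags about 1 in 20 groups. S100a1 was 354.4 RPKM in AAV-Cre library 1, below 374.5 to 376.7 RPKM in the other AAV-Cre libraries, a gap that is small in itself and stands out because the others agree closely. S100a1 was 297.3 RPKM in AAV-Luc library 2, above 239.4 to 247.9 RPKM in the other AAV-Luc libraries; this library also had the most Myl7 of its group, and without it the log2 fold change of S100a1 was 0.61. S100a9 was 0.6093 RPKM in AAV-Cre library 1, below 1.188 to 1.277 RPKM in the other AAV-Cre libraries.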

How the results depend on the processing

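Scaling moved the calls of the S100 genes most. With each library centred on its median, 4 members passed as higher in place of 7, and S100a1 (0.13), S100a10 (0.23) and S100a16 (0.000436) did not pass. With quantile normalization 5 passed as higher, beside 23.3% higher and 23.4% lower of all genes, and S100a10 (0.28, limma adjusted p = 0.0546) and S100a16 (0.045, limma adjusted p = 0.677) did not. The other settings listed kept 7 higher and 0 lower, also leaving out each library in turn (7 to 7 higher, 0 to 0 lower). Over those omissions the log2 fold change was 0.51 to 0.61 for S100a1, 1.90 to 2.20 for S100a4, 1.13 to 1.33 for S100a6, 0.56 to 0.70 for S100a10, 0.91 to 1.06 for S100a11, 0.74 to 0.85 for S100a13 and 0.37 to 0.48 for S100a16. S100a9 turned to 0.055 with a pseudocount of 0.1 and to 0.26 with library weights, and ran from -0.37 to 0.21 over the omissions, being higher in AAV-Cre without AAV-Cre library 1 (0.13) or AAV-Luc library 2 (0.21) or 3 (0.20); no setting called it. The log2 differences of S100a1 ratios over the omissions were -1.80 to -1.50 for S100a4, -0.80 to -0.62 for S100a6, -0.54 to -0.35 for S100a11, -0.34 to -0.23 for S100a13, -0.18 to 0.0109 for S100a10 (0.0109 without AAV-Luc library 2), 0.04 to 0.17 for S100a16 and 0.05 to 1.00 for S100a9. The ratio to S100a11 had exact permutation p = 0.0571 with a pseudocount of 0.5 (-0.44) and in 6 of the omissions, and that to S100a13 reached p = 0.0286 without AAV-Cre library 3 (-0.34). Without the 2 libraries with the most Myl7 the ratios were -1.83 for S100a4, -0.77 for S100a6 and -0.43 for S100a11, at exact permutation p = 0.1, below which 3 libraries in each group cannot go. The causes were not tested. No paired analysis was possible because the columns carry no replicate numbers that pair libraries. Depth limits S100a9 most, at 8 to 63 reads for each library. It was not tested with a mean of at least 5 RPKM or without the 2 libraries with the most Myl7.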

Other observations

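Of 8 lymphocyte markers 0 passed the filter. Of 6 adipocyte markers 1 was tested, Cfd, at 1.489 RPKM in AAV-Cre and 1.566 RPKM in AAV-Luc, and it did not pass. Of 5 red blood cell genes none passed as deposited, beside 73.3% of all genes tested that passed in either direction. After centring 3 were lower, beside 24.1% of all genes tested. Of 8 atrial and epicardial markers 5 were tested and 4 rose as deposited, beside 64.4% of all genes tested. Nppa, the atrial natriuretic peptide gene, was at 4547 to 10130 RPKM in AAV-Cre and 94.3 to 168.7 RPKM in AAV-Luc.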
